A study of Mus musculus with 25 samples.

Results

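The early effect of BW245C, an agonist of the prostaglandin D2 receptor DP1, was read in mouse livers 3 hr after concanavalin A (ConA) by setting the 5 arrays labelled ConA+BW245C_3hr against the 5 labelled ConA+vehicle_3hr, which are 10 of the 25 arrays of the series, over 15104 genes. All mice were female and of strain C57BL/6NcrSlc. The BW245C and vehicle groups shared a dose of 10 mg/kg ConA, and after 15 min the mice were given 1 mg/kg BW245C or vehicle, in both cases into the peritoneum. Besides these, 5 livers of each kind were taken at 24 hr, and 5 mice received no treatment. No age is given in the labels, and no group received BW245C without ConA, so the comparison shows what the agonist changed in a liver already exposed to the lectin. Each mouse gave 1 single-colour Agilent array of whole-liver RNA, and in such RNA fewer cells of a type and less RNA per cell cannot be told apart.

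ConA, a lectin of jack beans, activates T cells and natural killer T cells, whose cytokines injure hepatocytes and the vessel lining of the liver. Prostaglandin D2 is made from arachidonic acid through the cyclooxygenases and a prostaglandin D synthase. Its receptor DP1, the product of Ptgdr, couples to a stimulatory G protein and raises cyclic AMP (cAMP), which activates protein kinase A and the transcription factor CREB at the cAMP response element of its target genes. In hepatocytes a rise of cAMP, as after glucagon, is known to switch on gluconeogenesis, and in immune and endothelial cells cAMP is known to restrain inflammatory signalling.

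Levels below are processed signals divided by the 75th percentile of their array (array units), listed for mice 1 to 5 of a group, and are compared only within a gene. Changes are log2 differences, BW245C minus vehicle, with the standard error of a limma fit to all 25 arrays, and a gene was called at an adjusted p under 0.05 (Benjamini-Hochberg over 15104 genes). Genes of hepatocyte secreted proteins, which mark the labelled tissue, were bright, with a summed level of 15200 to 17500 array units with BW245C and 15900 to 20600 with vehicle, and 52.2% to 57.3% of the spots of the 10 arrays were well above background. The arrays were not evenly spread over slides. All 5 BW245C arrays and the arrays of vehicle mice 4 and 5 were on slide 3, whereas vehicle mice 1 and 2 were on slide 2 and vehicle mouse 3 on slide 1. Within the vehicle group itself, 4027 genes (26.7%) differed between slide 3 and the other slides. The counts over all genes and most lists, and many single genes, are therefore given also with the slide as a block. That is a fit in which every slide has a mean of its own. Where no result with the block is given, none is implied. Of 267 named genes, some of which had no call to lose, 79 lost their call with the block. The changes within slide 3 rest on 5 mice against 2.

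BW245C changed the early response of the liver broadly, and the largest changes were decreases. Many genes of immediate early, interferon and NF-kappaB responses and of some stress pathways were lower. A smaller number of genes were higher, among them genes of gluconeogenesis and glycogen and the cytokine genes Il4 and Il13. In all, 4317 of 15104 genes were called (28.6%), of which 1773 were higher (11.7%) and 2544 lower (16.8%). Of these, 572 changed at least 2-fold, 243 higher and 329 lower, and 2036 had no overlap between the 5 mice of each group (13.5%), 602 higher (3.99%) and 1434 lower (9.49%). The slide block left 1770 calls (11.7%), 854 higher (5.65%) and 916 lower (6.06%), and 1441 were called with and without the block in the same direction (9.54%), 570 higher (3.77%) and 871 lower (5.77%). Within slide 3 alone 1415 genes were called (9.37%), 667 higher (4.42%) and 748 lower (4.95%). The counts within gene lists below are to be read beside these shares of all genes. No gene was called in opposite directions by the fit with and the fit without the block, and 99.3% of the 4317 had the same sign with the block and 98.4% within slide 3. In the series matrix, the submitters' processed values of the same arrays, 62.1% of the called genes were higher, against 41.1% here, and the median over all genes was 0.08 there and -0.04 here.

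Ddit4, which encodes an inhibitor of the growth kinase mTORC1, had the largest decrease. It was at 0.842, 1.72, 1.03, 7.55 and 1.28 array units in BW245C livers, against 45.1, 29.3, 42.2, 28.4 and 25.4 in vehicle livers. Every BW245C liver, mouse 4 included, was below every vehicle liver, and 19.5-fold lower on average (log2 -4.28 ± 0.39, limma adjusted p = 2.26e-07), or 18-fold with the slide block (adjusted p = 0.00011) and 15.8-fold within slide 3. The 5 untreated livers, which had seen no ConA, were at 12.6 to 37.7, so the BW245C livers lay below these too. Gdf15, a stress-induced hormone of the TGF-beta family, was at 1.52, 2.54, 2.82, 3.63 and 2.19 array units with BW245C, against 34.8, 9.28, 23, 56.2 and 51.9 with vehicle. The groups did not overlap, and the gap was 12-fold (log2 -3.59 ± 0.38, limma adjusted p = 1.23e-06) and wider, 19.2-fold, with the slide block and 22.2-fold within slide 3.

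Nos2, the inducible nitric oxide synthase, was at 3.25, 3.1, 2.66, 2.82 and 1.39 array units in BW245C livers, against 36.2, 23.9, 22.8, 22.9 and 24.4 in vehicle livers. It was 10.1-fold lower with BW245C (log2 -3.34 ± 0.31, limma adjusted p = 2.63e-07), 10.3-fold with the slide block and 9.32-fold within slide 3. Efna1, a ligand of Eph receptors on vessels, was at 3.47, 3.25, 7.39, 30.0 and 4.06 array units with BW245C, against 85.6, 48.2, 50, 54.9 and 41.4 with vehicle. BW245C mouse 4 was the nearest to the vehicle livers for Efna1, and the mean was 8.57-fold lower (log2 -3.1 ± 0.43, limma adjusted p = 2.52e-05). The remaining large decreases included Hspa1a, an inducible chaperone, which was 6.60-fold lower, Bhlhe40, a transcriptional repressor of the clock, 5.98-fold lower, and the interferon-induced genes Ifit2, 7.65-fold lower, and Gbp9, 6.07-fold lower.

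Some of the lowest genes were not well above background in any BW245C liver, so that their fold is a lower limit, the vehicle mean over a BW245C mean in which each array counts at no less than the dimmest signal found well above background on it. Duoxa2, a maturation factor of dual oxidase, was at least 3.13-fold lower and Ankrd1, a stress-induced nuclear cofactor, at least 3.92-fold lower. The lower limit was 3.03-fold for A2m, a protease inhibitor, 2.08-fold for Plekhs1 and 1.69-fold for Ciart, a repressor of the clock. Each of these genes was well above background in all 5 vehicle livers except Ciart, which was so in 4.

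**Figure D1:**
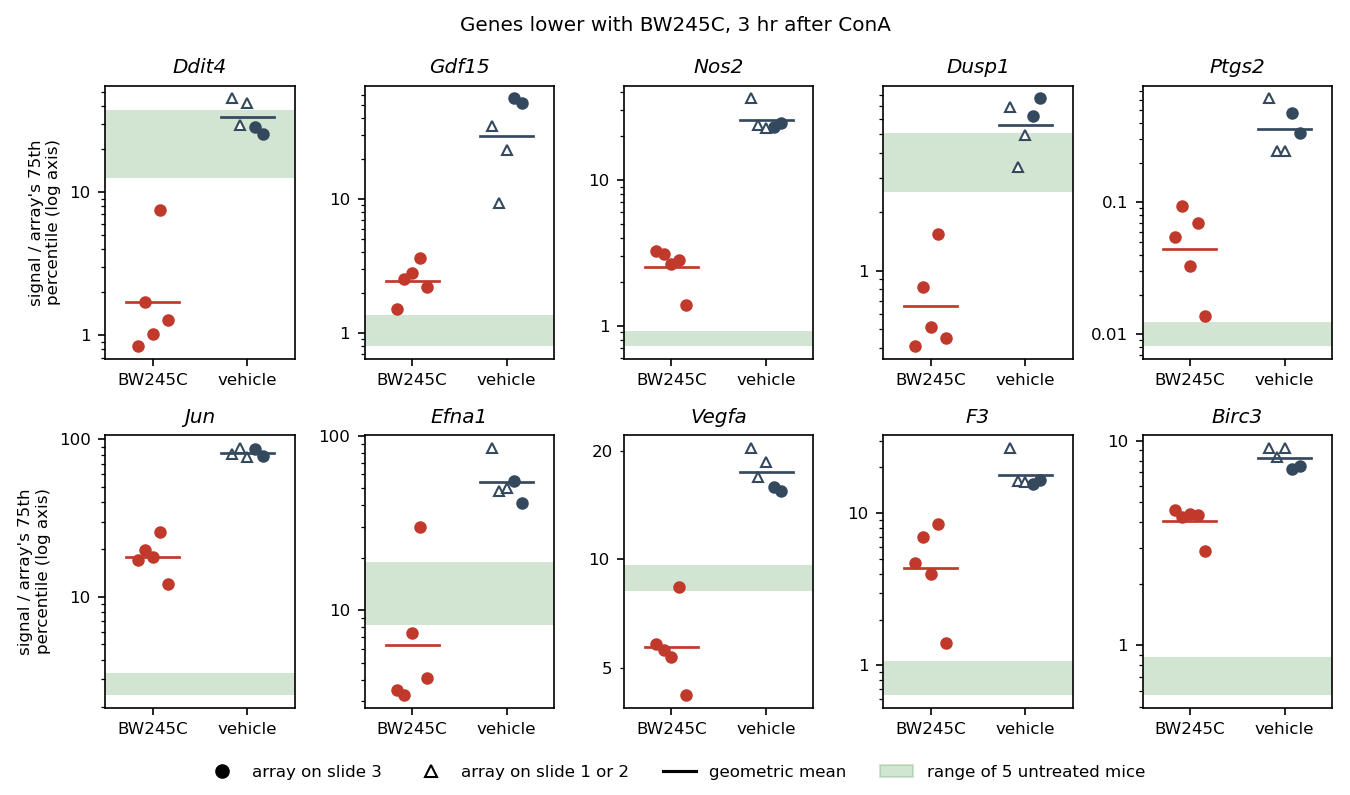
Levels of 10 genes that were lower with BW245C, in array units on a logarithmic axis, for the 5 BW245C mice (left) and the 5 vehicle mice (right), with lines at the geometric means, circles for arrays on slide 3, triangles for arrays on slides 1 and 2, and a green band for the range of the 5 untreated livers. The groups do not overlap for any of the 10 genes, on slide 3 or on all slides. BW245C mouse 4 lies nearest to the vehicle mice for all of them but Nos2, Ptgs2 and Birc3.

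Ppp1r3g, which targets protein phosphatase to glycogen in the liver, had the largest increase. Its levels were 0.752, 0.279, 0.451, 0.256 and 0.677 array units in BW245C livers, against 0.0209, 0.0681, 0.111, 0.0452 and 0.0631 in vehicle livers. The groups were clearly apart, 8.18-fold (log2 3.03 ± 0.52, limma adjusted p = 0.000231), 8.21-fold with the slide block and 8.23-fold within slide 3. G6pc, the glucose-6-phosphatase that releases free glucose from the liver, was at 1.83, 1.3, 2.01, 1.20 and 14.4 array units with BW245C, against 0.310, 0.301, 0.519, 0.342 and 0.527 with vehicle. It was 6.25-fold higher (log2 2.64 ± 0.48, limma adjusted p = 0.000401), and log2 2.00 higher without BW245C mouse 5, which stood far above the others. Untreated livers had 82.4 to 180 array units of G6pc, so both ConA groups were far below them.

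Pdk4, the kinase that turns off pyruvate oxidation in fasting, was at 9.23, 12.2, 14.7, 11.8 and 11.8 array units in BW245C livers, against 4.68, 3.46, 2.43, 2.95 and 1.15 in vehicle livers. BW245C livers were also above the untreated range of 3.23 to 7.06, and 4.45-fold above vehicle (log2 2.15 ± 0.31, limma adjusted p = 4.27e-05). Gdf2, which encodes the stellate cell product BMP9 that acts on endothelium, was at 1.14, 0.989, 2.29, 1.25 and 2.12 array units with BW245C, against 0.436, 0.507, 0.623, 0.380 and 0.331 with vehicle. It was 3.31-fold higher and between the vehicle and the untreated livers, which had 4.23 to 4.61. Others that rose without overlap were S100g, a calcium-binding protein (5.74-fold), Slc25a34, a mitochondrial carrier (5.41-fold), Rnf144a, a ubiquitin ligase (4.16-fold), Spsb4 (3.47-fold), Fbf1 (3.32-fold) and DXBay18 (3.19-fold). Adamts15, a secreted metalloprotease, was not above background in vehicle livers and was at least 1.96-fold higher. Pax2 was 3.23-fold higher, but it was not called with the slide block (adjusted p = 0.062), where the fold was 2.37.

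**Figure D2:**
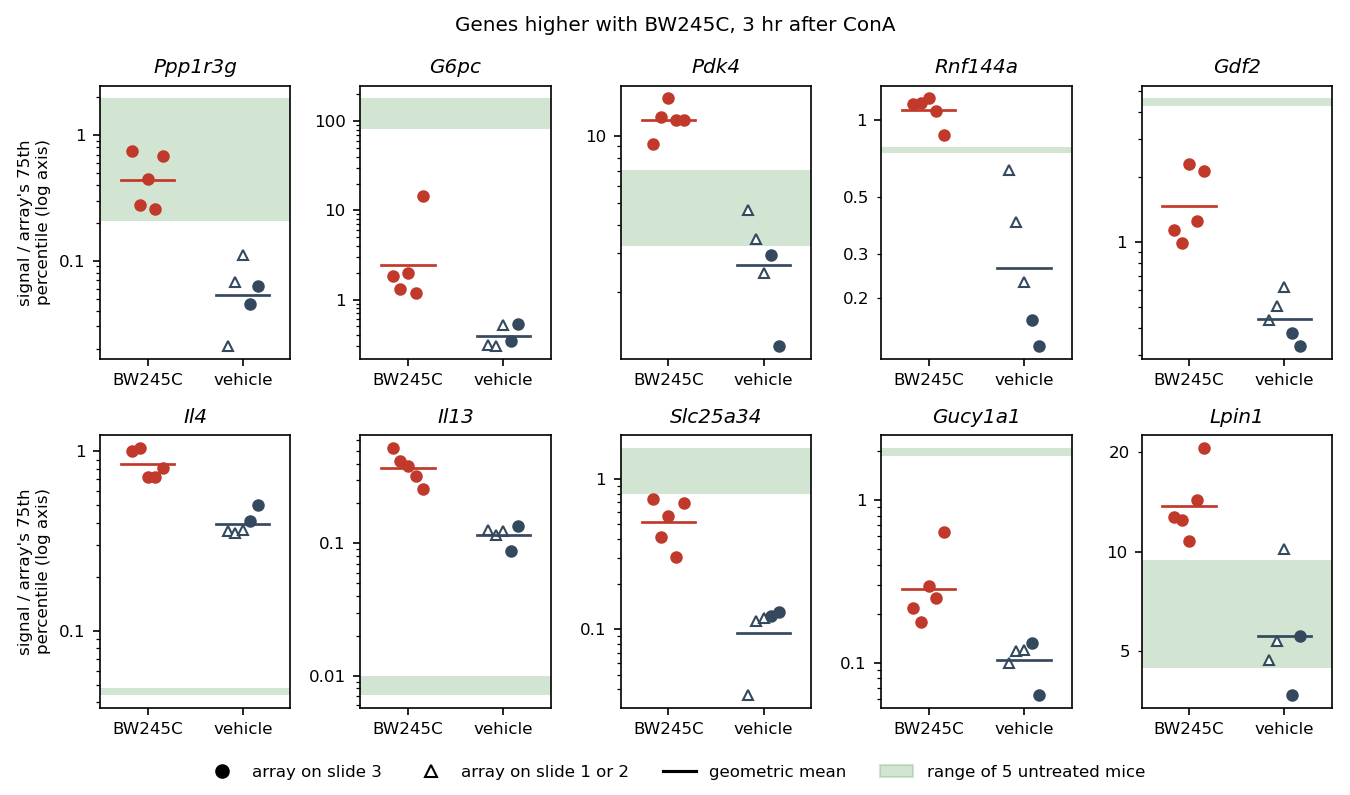
Levels of 10 genes that were higher with BW245C, drawn as in the plot of lower genes, with BW245C mice left of vehicle mice. The groups do not overlap for any gene shown, and the single high point of G6pc is BW245C mouse 5, at 14.4 array units.

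The receptor itself could not be measured, and of the prostanoid genes Ptgs2 changed most. Ptgdr, the gene of DP1, and Ptgdr2, the gene of the other prostaglandin D2 receptor, were at no array of the 25 well above background and were not tested. Hpgds, the haematopoietic prostaglandin D synthase, was above background on 2 untreated arrays and on none of the 10 compared here. Ptgds, the lipocalin-type synthase, was at 4.51, 7.94, 2.08, 1.79 and 1.24 array units with BW245C, against 1.03, 2.18, 3.41, 1.08 and 4.47 with vehicle. These ranges overlapped widely and the difference was not called (log2 0.43 ± 0.44, limma adjusted p = 0.488). Ptgs2, the inducible cyclooxygenase, was at 0.0551, 0.0944, 0.0330, 0.0701 and 0.0139 array units in BW245C livers, against 0.613, 0.245, 0.245, 0.478 and 0.337 in vehicle livers. It was 8.12-fold lower (log2 -3.02 ± 0.52, limma adjusted p = 0.000225) and 9.38-fold with the slide block. Of 23 prostanoid genes measured, Ptgs2 and 2 more were lower, Ptges2 and Ptgr2, which fell by 0.31 and 0.29 on the log2 scale. Both of these lost the call with the block, Ptges2 also without any 1 of BW245C mice 3 and 4 or vehicle mice 1, 2 and 3, and Ptgr2 without any 1 of BW245C mice 2, 4 and 5 or vehicle mice 1, 2 and 3.

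Genes known to respond to cAMP changed in both directions. Of 33 measured, 7 were higher and 13 lower, with a median log2 change of -0.15, against -0.04 over all genes. With and without the slide block, 3 were higher and 9 lower. The shares over all genes were 11.7% higher and 16.8% lower, and 3.77% and 5.77% with both fits. The higher genes with both fits were G6pc, Ppargc1a, the coactivator of gluconeogenesis (log2 0.62 ± 0.20, limma adjusted p = 0.0235), and, named after its values were seen, Pde7b, a cAMP phosphodiesterase not above background in any vehicle liver and at least 1.68-fold higher. Crem, whose inducible form is a CREB target and repressor, was at 6.13, 5.87, 5.82, 5.82 and 5.31 array units with BW245C, against 8.58, 8.17, 5.22, 5.38 and 5.44 with vehicle. It was not called (log2 -0.14 ± 0.16), nor were Nr4a1, an orphan nuclear receptor (log2 -0.31 ± 0.25), and Pde4d, a cAMP phosphodiesterase (log2 0.21 ± 0.18).

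Other genes of that list went down clearly. Dusp1, the nuclear phosphatase that ends MAP kinase signalling, was at 0.409, 0.821, 0.510, 1.54 and 0.453 array units in BW245C livers, against 6.87, 3.39, 4.96, 6.20 and 7.65 in vehicle livers. It was 8.56-fold lower (log2 -3.1 ± 0.30, limma adjusted p = 4.5e-07), 11-fold with the slide block, 10.5-fold within slide 3, and lower than in untreated livers, which had 2.53 to 5.08. Pde4b, the phosphodiesterase that inflammation induces, was at 15.2, 18.7, 14.8, 20.7 and 11.2 array units with BW245C, against 29.8, 23.6, 32.0, 27.6 and 28.4 with vehicle, a 1.78-fold decrease (limma adjusted p = 0.00173). Cited2, a cofactor that competes with HIF-1, was 4.74-fold lower, Per1, of the clock, 3.03-fold lower and Id2, an inhibitor of helix-loop-helix factors, 1.53-fold lower. Pck1, which starts gluconeogenesis and is a textbook cAMP target, was only just called (log2 0.72 ± 0.27, limma adjusted p = 0.0478). The slide block ended that call (adjusted p = 0.149) and without any 1 of BW245C mice 1, 2, 3 and 5 or vehicle mice 1, 2, 3 and 4. Ppargc1a lost its call without BW245C mouse 1 or 5 or vehicle mouse 2 or 4, although it kept it with the block.

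Promoter sequences, from 250 bases before to 50 after the start of transcription, were read from RefSeq on build GRCm38.p6. Those of 4 genes above are printed, the lower pair Dusp1 and Ptgs2 and the higher pair Ppp1r3g and Pck1. They show where each holds the letters through which CREB is known to bind. All 4 hold such a match, and they do not stand for all genes named above. The promoters of G6pc, Pdk4, Ddit4, Gdf15, Cited2 and Id2 hold none in this window, while those of Per1 and Ppargc1a do. Capitals mark the full element TGACGTCA and its 5-base core TGACG or, on the other strand, CGTCA.
Dusp1, chr17:26508423-26508722, minus strand: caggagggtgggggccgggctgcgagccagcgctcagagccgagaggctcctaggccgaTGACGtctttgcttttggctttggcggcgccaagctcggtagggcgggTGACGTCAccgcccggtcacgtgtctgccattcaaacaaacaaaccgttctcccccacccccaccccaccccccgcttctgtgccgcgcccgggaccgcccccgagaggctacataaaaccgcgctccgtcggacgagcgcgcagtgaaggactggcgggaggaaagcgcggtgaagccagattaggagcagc
Ptgs2, chr1:150099781-150100080, plus strand: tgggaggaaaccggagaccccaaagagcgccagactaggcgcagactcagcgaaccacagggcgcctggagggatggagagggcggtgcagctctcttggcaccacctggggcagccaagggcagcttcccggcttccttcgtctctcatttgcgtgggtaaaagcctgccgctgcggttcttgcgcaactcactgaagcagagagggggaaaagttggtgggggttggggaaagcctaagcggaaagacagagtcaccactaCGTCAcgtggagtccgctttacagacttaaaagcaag
Ppp1r3g, chr13:35967656-35967955, plus strand: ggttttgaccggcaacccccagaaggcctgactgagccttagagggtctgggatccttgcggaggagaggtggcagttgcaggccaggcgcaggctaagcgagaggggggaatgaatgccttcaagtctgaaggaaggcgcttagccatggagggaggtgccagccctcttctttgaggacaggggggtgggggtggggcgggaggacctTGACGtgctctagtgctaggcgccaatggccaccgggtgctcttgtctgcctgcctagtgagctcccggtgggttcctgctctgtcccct
Pck1, chr2:173152823-173153122, plus strand: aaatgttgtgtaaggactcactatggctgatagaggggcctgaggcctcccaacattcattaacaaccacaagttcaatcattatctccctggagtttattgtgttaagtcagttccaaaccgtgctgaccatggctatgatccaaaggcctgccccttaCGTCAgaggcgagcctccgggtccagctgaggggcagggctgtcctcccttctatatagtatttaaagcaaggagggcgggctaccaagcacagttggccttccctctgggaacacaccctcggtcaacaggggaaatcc
The full element begins 143 bases before the start of Dusp1. The core starts 191 bases before the start in Dusp1, 40 before it in Ppp1r3g and 90 before it in Pck1, and 14 bases into the transcript in Ptgs2.

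Searched on both strands in every promoter of a gene, the core was in the promoter of 30.8% of the 13 genes with the largest increases for which a sequence was at hand, in 18.2% of the 11 with the largest decreases and in 23% of all genes in the table. Full elements contain the core. The full element was in none of those 13 and in 1 of those 11, Dusp1, against 3.09% of the tested genes and 2.03% of all genes. The AP-1 site TGANTCA was in none of the 13 and in 1 of the 11, Duoxa2, against 7.17% of the tested genes and 8.97% of all genes. Over the 12017 tested genes with a promoter, the core was in 27.7% of those called higher, 36.6% of those called lower and 31.0% of those not called. Of the called genes of the cAMP list, 2 of 6 higher and 7 of 10 lower had the core, as did 7 of the 10 that were not called. A match describes the letters of this window only.

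Immediate early genes, which are switched on within minutes of a stimulus without new protein, were lower as a group. Of 26 measured, 16 were lower and none higher, with a median log2 change of -0.86, and 12 were lower also with the slide block, median -0.82. Jun, a subunit of AP-1, was at 17.2, 19.9, 17.8, 26.0 and 12 array units in BW245C livers, against 80.3, 88.9, 77.4, 86.8 and 78.4 in vehicle livers. The vehicle livers lay close together and the BW245C livers 4.56-fold lower (log2 -2.19 ± 0.18, limma adjusted p = 4.8e-08), though above the untreated range of 2.37 to 3.30. Ccn1, a matricellular protein and YAP target, was at 0.923, 0.925, 1.16, 1.27 and 0.482 array units with BW245C, against 3.56, 3.50, 3.54, 4.81 and 4.23 with vehicle. The BW245C livers lay around the untreated range of 0.928 to 1.09, and 4.30-fold below vehicle. Ier2 was 2.97-fold lower and Csrnp1 2.68-fold. A further pair was picked after its values were seen: Fos, the partner of Jun in AP-1, was 3.77-fold lower, and Atf3, a stress-induced repressor, 3.62-fold lower, each without overlap.

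Feedback inhibitors of the same signalling were lower too. Of 18 MAP kinase phosphatases and RGS proteins, 11 were lower and 1 higher (median log2 -0.69), and with and without the block 6 were lower and 1 higher. Rgs16, which shortens G protein signals, was at 15.5, 22.1, 15.8, 38.5 and 19.8 array units with BW245C, against 78.0, 62.6, 88.8, 95.8 and 86.3 with vehicle. That is a 3.87-fold decrease without overlap (log2 -1.95 ± 0.34, limma adjusted p = 0.000235). Dusp10, a phosphatase of p38 and JNK, was 2.02-fold lower, and Rgs2, which limits Gq signalling, 2.09-fold lower with overlap of a BW245C and a vehicle mouse.

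Genes of the NF-kappaB pathway, the main route from TNF and Toll-like receptors to inflammatory genes, shifted down by a modest amount. Of 29 measured, 21 were lower and none higher, with a median log2 change of -0.56, and 10 were lower with and without the slide block. Birc3, an inhibitor of TNF-induced cell death, was at 4.59, 4.25, 4.40, 4.32 and 2.88 array units in BW245C livers, against 9.21, 8.33, 9.26, 7.29 and 7.49 in vehicle livers, 2.05-fold lower (limma adjusted p = 2.52e-05). The subunits Rela and Nfkb1 were 1.69-fold and 1.79-fold lower, and Irak3, a brake on Toll-like receptors, 2.40-fold lower. None of the 4 overlapped between groups, and all 5 BW245C livers were still above the untreated livers for each of them, where Birc3 had 0.569 to 0.879 array units and Rela 28.5 to 30.8.

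Interferon-induced genes were lower to a similar degree. Of 29 interferon-gamma induced genes 20 were lower and none higher (median log2 -0.72), and 13 of the 29 were lower with and without the block. Psmb9, a subunit of the immunoproteasome, was 2.09-fold lower, Irgm1, a GTPase against intracellular bacteria, 1.65-fold and Tap2, a peptide transporter for MHC class I, 1.56-fold. Of 27 type I interferon antiviral genes, 20 were lower and 1 higher (median log2 -0.76, and -0.53 with the block), and 9 were lower with and without the block. Within the vehicle group this list was lower on slide 3 than on the other slides, by a median log2 of -0.34, against -0.145 over all genes. Isg15, a ubiquitin-like modifier, was at 85.2, 94.6, 78.8, 71.9 and 36.6 array units with BW245C, against 201, 220, 135, 136 and 133 with vehicle, 2.30-fold lower (limma adjusted p = 0.000219). Herc6 was 2.64-fold and Xaf1 2.24-fold lower, but the other probe of Xaf1 went the other way. Of 21 JAK-STAT genes, 13 were lower and 2 higher, and 5 were lower with the block as well. Jak3, the kinase of the common gamma chain, was 2.01-fold lower, Jak2 1.82-fold, Stat6 1.58-fold and Stat2 1.38-fold.

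The cytokines best known in ConA hepatitis were not called over all 10 mice. Ifng, the main T cell and NK cell product, was at 3.99, 4.10, 2.30, 2.89 and 2.03 array units in BW245C livers, against 5.83, 3.91, 3.40, 3.06 and 2.85 in vehicle livers. The groups overlapped and the change was not called (log2 -0.32 ± 0.25, limma adjusted p = 0.336), and within slide 3 it was -0.01. Tnf was at 1.35, 1.53, 0.722, 0.981 and 0.904 array units with BW245C, against 2.50, 1.21, 1.40, 1.3 and 1.31 with vehicle, and was not called (log2 -0.49 ± 0.37). Il6 was not called either (log2 -0.75 ± 0.34, limma adjusted p = 0.0996), but was called lower without BW245C mouse 2 or without vehicle mouse 2 (lowest adjusted p = 0.0278). With 5 mice a group, decreases of the size of these standard errors could not be resolved.

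The T helper 2 cytokines Il4 and Il13 were higher. Il4 was at 1.00, 1.05, 0.715, 0.718 and 0.807 array units in BW245C livers, against 0.361, 0.351, 0.364, 0.407 and 0.504 in vehicle livers. Every BW245C liver was above every vehicle liver, by 2.15-fold on average (log2 1.10 ± 0.15, limma adjusted p = 2.74e-05), 2.04-fold with the slide block and 1.87-fold within slide 3. Il13, the neighbour of Il4 in function, was at 0.529, 0.416, 0.384, 0.323 and 0.255 array units with BW245C, against 0.125, 0.115, 0.124, 0.0867 and 0.135 with vehicle, 3.19-fold higher (log2 1.67 ± 0.38, limma adjusted p = 0.00278) and 3.81-fold with the block. Il10, an anti-inflammatory cytokine, was 1.59-fold higher (limma adjusted p = 0.0436) with overlap, which was not called with the block (adjusted p = 0.499) or without any 1 of BW245C mice 2, 4 and 5 and vehicle mice 2 and 3. In all, 4 of 28 cytokine genes were higher and 8 lower, against 11.7% and 16.8% of all genes. With both fits 2 were higher and 3 lower, against 3.77% and 5.77%. The 3 lower genes, named after their values were seen, were Il15, which sustains NK cells (2.87-fold lower), the alarmin Il33 (2.28-fold lower) and Csf1, the macrophage growth factor (1.94-fold lower).

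Called chemokine genes were mostly lower. Of 16 CC chemokines, which attract monocytes, T cells and eosinophils, 9 were lower and none higher, with a median log2 change of -0.87, and 3 were lower with and without the block. Ccl11, an attractant of eosinophils, was at 1.87, 2.18, 1.68, 2.65 and 0.676 array units with BW245C, against 4.95, 5.82, 4.15, 4.80 and 4.62 with vehicle, 2.93-fold lower (limma adjusted p = 0.000189). Ccl8 was 4.22-fold and Ccl12 2.71-fold lower, and both kept the call with the block, whereas Ccl24 was 2.70-fold lower and did not (adjusted p = 0.136). Ccl2, the main monocyte attractant, was 2.16-fold lower (limma adjusted p = 0.0235), not called with the block (adjusted p = 0.123) or without BW245C mouse 5 or vehicle mouse 1.

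Of 9 genes of neutrophil-attracting CXC chemokines 2 were lower and none higher, and Cxcl5 kept the call with the block. Among all genes 16.8% were lower, and 5.77% with and without the block, so counts this small are near the background. Cxcl5 was 2.25-fold lower and Ppbp 1.83-fold lower, the first named after its values were seen. Of 10 CXCR3 ligands and other CXC genes 4 were lower and 1 higher, and 3 were lower with and without the block. Cxcl1 was at 61.7, 79.4, 103, 97.3 and 77.2 array units in BW245C livers, against 70.0, 61.4, 89.3, 95.8 and 110 in vehicle livers, with the same range in both groups (log2 -0.02 ± 0.24, limma adjusted p = 0.964). Cxcl10, an attractant of activated T cells, was at 907, 920, 1070, 1010 and 806 array units with BW245C, against 1090, 1160, 1150, 1010 and 980 with vehicle, and was not called (log2 -0.20 ± 0.28). Cx3cl1, the endothelial chemokine fractalkine, was 2.98-fold lower (log2 -1.57 ± 0.18, limma adjusted p = 2.48e-06), Cxcl16 2.00-fold lower and Cxcl9 1.68-fold lower. Cxcl9 was not called with the block (adjusted p = 0.192).

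**Figure D3:**
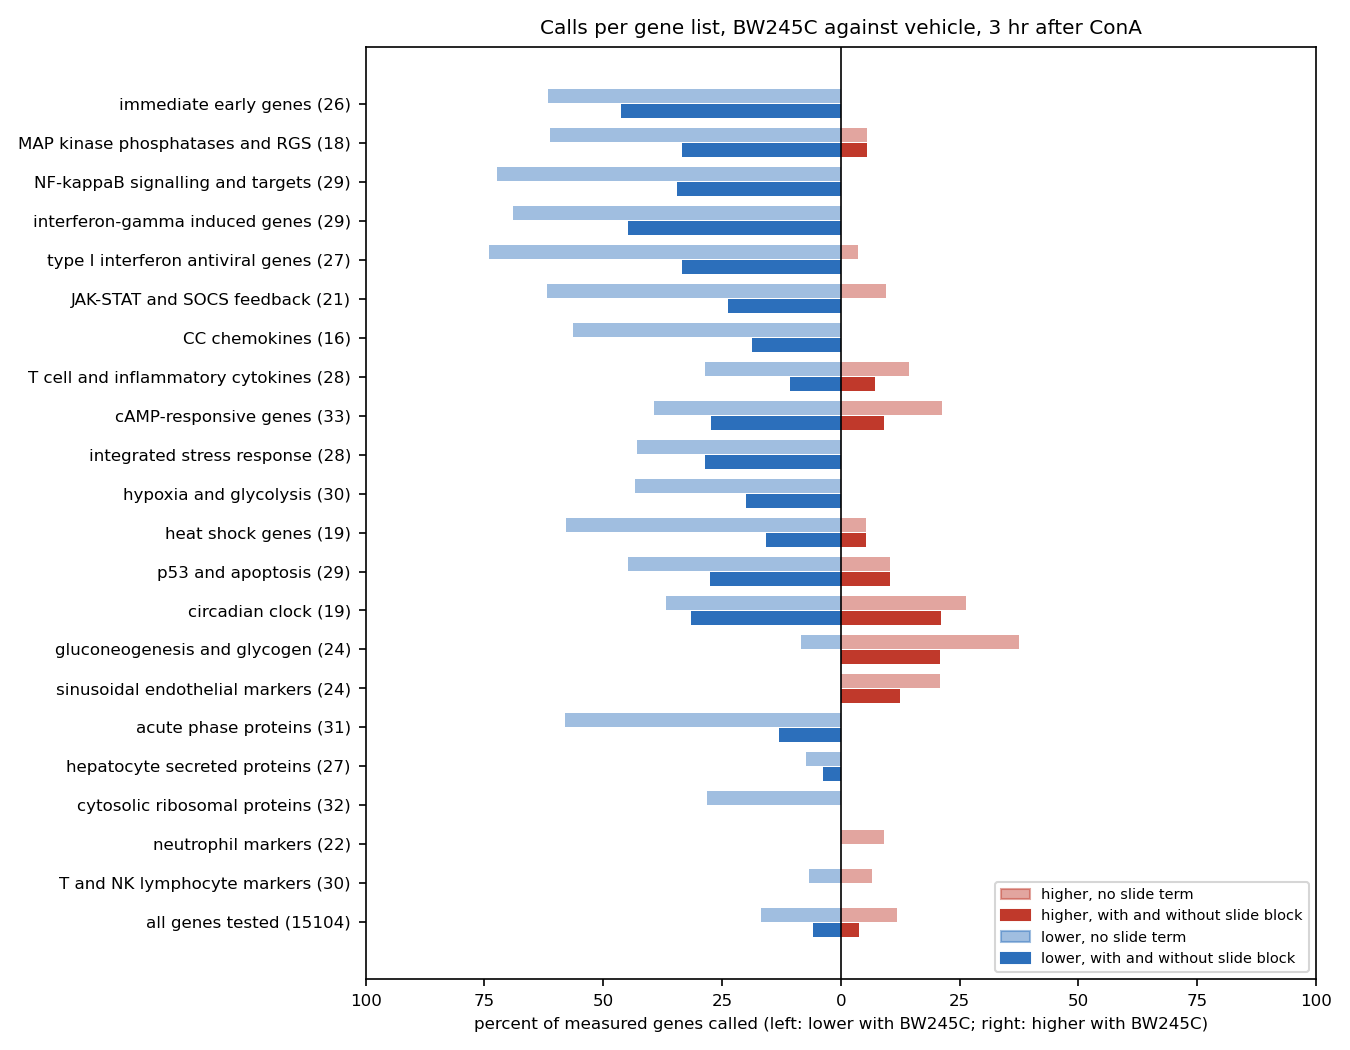
Share of the measured genes of each list that were called lower (left, blue) or higher (right, red) with BW245C, in percent. The upper, pale bar of a list is the fit without a slide term and the lower, dark bar is the genes called with and without the slide block. All genes tested stand at the bottom as background, and the number of measured genes is in brackets. Interferon and NF-kappaB genes extend furthest to the left, immediate early genes keep the longest dark bar there, and, among the lists drawn, gluconeogenesis and clock genes extend furthest to the right.

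Few markers of infiltrating and resident cells were called, and their part in the changes above was not tested. Of 22 neutrophil markers measured, 2 were higher and none lower, and none was called with the block. Their summed level was 575 to 792 array units with BW245C and 569 to 1000 with vehicle, and Ly6g was not measured above background. The vehicle livers of slide 3 had 569 to 577 and those of the other slides 745 to 1000. Elane, a granule protease, was 1.73-fold higher, but the same gene differed between slides within the vehicle group (log2 1.01, adjusted p = 2.4e-05), and the call was lost with the block (adjusted p = 0.273) and without vehicle mouse 1. Of 30 T and NK cell markers 2 were higher and 2 lower, and none was called with and without the block. Their summed level was 99.8 to 136 array units with BW245C and 68.5 to 117 with vehicle, with Trac, Ncr1 and Klrk1 not tested. Vehicle livers had 91.2 to 117 on slide 3 and 68.5 to 74.3 on the other slides. Gzmb, the cytotoxic granule protease, was at 0.926, 1.17, 0.535, 1.24 and 0.492 array units with BW245C, against 3.11, 1.38, 1.67, 1.41 and 1.38 with vehicle, 2.09-fold lower (limma adjusted p = 0.0101), and not called with the block (adjusted p = 0.129).

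Of 17 Kupffer cell markers 1 was higher and 2 lower, and their summed level was 83.9 to 157 array units with BW245C and 125 to 227 with vehicle. Id3, a helix-loop-helix inhibitor that other liver cells also express, was the marker lower in both fits, at 5.21, 9.1, 8.06, 10.4 and 7.54 array units with BW245C, against 56.6, 57.6, 25.9, 42.4 and 40.1 with vehicle, a 5.45-fold decrease (limma adjusted p = 4.83e-07). Of 16 monocyte and macrophage markers 1 was higher and 2 lower, none of them with the block. Their summed level was 157 to 227 array units with BW245C and 180 to 235 with vehicle, 180 to 207 on slide 3 and 226 to 235 elsewhere. Cd14, the endotoxin coreceptor, was 2.17-fold lower without overlap. Cx3cr1, the receptor of Cx3cl1, was above background in 1 of the 10 livers, that of BW245C mouse 3, at 1.07 array units. It was called (limma adjusted p = 0.0117, at least 1.55-fold higher), but not with the block (adjusted p = 0.195), and without that mouse no liver of the comparison was above background.

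Red cell and platelet markers were often called lower, though mostly not with the slide block. Of 8 platelet markers 4 were lower and 1 higher, and with the block 1 and 1. Of 7 erythroid markers measured 4 were lower and none higher, against 16.8% and 11.7% of all genes. With the block 1 erythroid marker was lower and 1 higher, against 6.06% and 5.65%. The summed level of the erythroid markers was 65.8 to 380 array units with BW245C and 511 to 817 with vehicle, without overlap, while untreated livers had 58.1 to 178. Hba-a1, an alpha globin, was at 209, 239, 156, 238 and 39.9 array units in BW245C livers, against 522, 329, 433, 403 and 446 in vehicle livers, 2.83-fold lower (limma adjusted p = 0.00724), and was not called with the block (adjusted p = 0.0624), where the fold was 2.95. Alas2, the erythroid enzyme of haem synthesis, was 2.17-fold lower and kept the call.

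The vessel wall and clotting genes changed in both directions. Of 30 genes of endothelial activation and vessel tone, 6 were higher and 9 lower, against 11.7% and 16.8% of all genes. With and without the block 4 were higher and 5 lower, against 3.77% and 5.77%. Vegfa, the vascular growth factor, was at 5.83, 5.60, 5.37, 8.37 and 4.20 array units in BW245C livers, against 20.4, 16.9, 18.6, 15.9 and 15.5 in vehicle livers. The BW245C livers were 3.04-fold lower (log2 -1.60 ± 0.17, limma adjusted p = 1.42e-06), and 4 of them were below the untreated range of 8.15 to 9.62. Sele, the endothelial selectin that catches leukocytes, was at 0.548, 0.569, 0.446, 0.606 and 0.201 array units with BW245C, against 1.81, 1.05, 1.48, 2.22 and 1.95 with vehicle, 3.73-fold lower (limma adjusted p = 0.000606). Gucy1a1, a subunit of the nitric oxide receptor, was at 0.216, 0.177, 0.294, 0.249 and 0.632 array units with BW245C, against 0.0996, 0.118, 0.119, 0.131 and 0.0629 with vehicle. It was 2.73-fold higher (limma adjusted p = 0.00011), still below the untreated range of 1.87 to 2.10.

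Among 25 coagulation and fibrinolysis genes 7 were lower and 1 higher, against 16.8% and 11.7% of all genes, and F3 was lower with and without the block. F3, the tissue factor that starts coagulation, was at 4.70, 6.95, 3.96, 8.46 and 1.40 array units in BW245C livers, against 27, 16.2, 16.1, 15.5 and 16.6 in vehicle livers, 4.11-fold lower (log2 -2.04 ± 0.34, limma adjusted p = 0.000143). Thbs1, a platelet and matrix protein, was 2.01-fold lower and Thbd, the endothelial anticoagulant thrombomodulin, 2.28-fold higher, neither of them called with the block (adjusted p = 0.0558 and 0.116). Of 24 sinusoidal endothelial markers 5 were higher and none lower, and Ehd3, Gpr182 and Flt4 were higher also with the block, by 1.59-, 1.64- and 2.19-fold without it. Each of these 3 overlapped between groups over all slides but not within slide 3, and Flt4 was above background in 2 of the 5 vehicle livers. The summed level of the list was 90.5 to 133 array units with BW245C, 77.6 to 112 with vehicle and 159 to 182 in untreated livers.

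Stress pathways differed in their counts. Of 24 genes of endoplasmic reticulum stress 3 were lower and none higher, and of 26 of oxidative stress and NRF2 3 were higher and 4 lower. Neither list exceeded the shares over all genes, 16.8% lower and 11.7% higher. In the integrated stress response, which slows translation and induces ATF4 targets, 12 of 28 genes were lower and none higher (median log2 -0.46, and -0.36 with the block), 8 of them with the block as well. Ppp1r15a, the phosphatase subunit that ends that response, was at 9.48, 9.54, 10.3, 20.2 and 6.24 array units with BW245C, against 32.5, 28.8, 28.1, 27.2 and 31.3 with vehicle, 2.86-fold lower (limma adjusted p = 0.000108). Trib3, a pseudokinase target of ATF4, was 2.76-fold lower, with overlap. Among 30 genes of hypoxia and glycolysis, 13 were lower and none higher (median log2 -0.449, and -0.225 with the block), and 6 were lower with both fits. Within the vehicle group the integrated stress response and hypoxia lists were lower on slide 3 than on the other slides. The median log2 differences were -0.35 and -0.34, against -0.145 over all genes. Pfkfb3, which drives glycolysis, was at 27.4, 31.4, 27.9, 54.7 and 19 array units with BW245C, against 105, 85.3, 93.7, 90.1 and 81.5 with vehicle, 3.01-fold lower (limma adjusted p = 0.000145), while Egln3, an oxygen sensor, was 3.18-fold and Hif1a 1.71-fold lower.

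Of 19 heat shock genes 11 were lower and 1 higher, and 3 lower and 1 higher with both fits, the lower 3 being Hspa1a, Bag3, a cochaperone (1.80-fold), and Hspa8, the constitutive chaperone (1.5-fold). Chordc1 was 1.54-fold lower, and was not called with the block (adjusted p = 0.0601). Hspa1a was at 0.111, 0.127, 0.113, 0.183 and 0.142 array units in BW245C livers, against 1.10, 0.445, 0.497, 0.955 and 2.24 in vehicle livers, so that the BW245C livers stayed near the untreated range of 0.0862 to 0.138. Of 29 genes of p53 and apoptosis 13 were lower and 3 higher, and 8 and 3 with both fits. Plk3, a stress kinase, was 2.07-fold lower, Btg2, an antiproliferative p53 target, 3.12-fold, Gadd45b, a stress sensor, 2.95-fold and Casp8, the initiator caspase of death receptors, 1.69-fold. Cdkn1a, the cell cycle inhibitor p21, singled out after its values were seen, was 2.13-fold higher (limma adjusted p = 0.0142) and 3.52-fold with the block, while its other probe went the other way and the gene differed between slides within the vehicle group (adjusted p = 0.00602).

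Among metabolic genes of the fasting response, calls for gluconeogenesis were mostly higher, and calls for fatty acid oxidation were mostly lower only without the slide block. Of 24 genes of gluconeogenesis and glycogen 9 were higher and 2 lower, with a median log2 change of 0.09, and with and without the block 5 were higher and none lower. Irs1, an insulin receptor substrate, was at 0.471, 0.489, 0.579, 0.390 and 0.878 array units in BW245C livers, against 0.197, 0.303, 0.370, 0.267 and 0.386 in vehicle livers, 1.82-fold higher without overlap (limma adjusted p = 0.00467), and far below the untreated range of 5.13 to 6.80. Irs2, its partner in insulin signalling and a cAMP target, went the other way, 1.53-fold lower, but not with the block (adjusted p = 0.241) or without vehicle mouse 2. Angptl4, a fasting-induced inhibitor of lipoprotein lipase, was at 114, 109, 143, 117 and 153 array units with BW245C, against 66.7, 61.6, 54.4, 48.1 and 44.2 with vehicle, 2.31-fold higher (limma adjusted p = 0.00386). Of 35 genes of fatty acid oxidation and ketogenesis 2 were higher, Pdk4 and Angptl4, and 7 lower (median log2 -0.27), against 11.7% and 16.8% of all genes. With the block Pdk4 and Angptl4 kept the call, as did 1 lower gene, Acaa1a, a peroxisomal thiolase, and the median was -0.08. Lpin1, a phosphatidate phosphatase that also coactivates PGC-1alpha, was 2.50-fold higher, 1 of 3 genes higher among 21 of lipogenesis, of which none was lower.

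Glucocorticoid targets, many of which cAMP also regulates, were split. Of 25 measured 8 were higher and 7 lower, and with both fits 5 and 4. Those higher included, by choice after seeing the values, Fkbp5, the chaperone that dampens the receptor (1.80-fold), and Zbtb16, a zinc finger factor (2.72-fold), both called with the block. Those lower with both fits were Ddit4, Dusp1, Per1 and Gadd45b.

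Clock genes changed in both directions. Of 19 clock genes 5 were higher and 7 lower, against 11.7% and 16.8% of all genes, and 4 and 6 were so with and without the block. Arntl, which encodes the activator BMAL1, was at 3.67, 3.08, 3.33, 3.26 and 2.80 array units in BW245C livers, against 2.64, 0.879, 0.885, 0.567 and 0.602 in vehicle livers. The groups did not overlap, though vehicle mouse 1 came close, and the fold was 3.45 (log2 1.79 ± 0.25, limma adjusted p = 2.5e-05), or 5.00 with the block and 5.5 within slide 3. Npas2, the partner of BMAL1, was 2.92-fold higher with overlap of vehicle mouse 1, the only vehicle liver above background, and Rora, which activates Arntl, 2.03-fold higher. Cry1, a repressor of the clock, was likewise 2.12-fold higher and, like Nr1d1, Nr1d2 and Tef below, was chosen after its values were seen.

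Several other repressors and output factors of the clock were lower. Dbp, an output factor driven directly by BMAL1, was at 0.179, 0.195, 0.180, 0.110 and 0.267 array units with BW245C, against 0.184, 0.641, 1.00, 0.974 and 5.75 with vehicle. Vehicle mouse 1 was within the BW245C range and vehicle mouse 5 far above all others, so that the log2 change of -2.36 ± 0.54 (limma adjusted p = 0.00286) was -1.70 without mouse 5. The related factor Tef was 2.21-fold lower, with vehicle mouse 1 again among the BW245C values. Nr1d2 and Nr1d1, the REV-ERB repressors of Arntl, were 3.11- and 4.39-fold lower, the Nr1d1 call being lost with the block (adjusted p = 0.0743). Per1 was at 1.45, 1.80, 1.82, 3.03 and 3.17 array units with BW245C, against 5.65, 6.02, 8.86, 5.71 and 6.71 with vehicle. Bhlhe40 was at 2.83, 3.03, 3.00, 9.56 and 3.00 array units with BW245C, against 26.2, 21.7, 21.7, 23.2 and 19.7 with vehicle. Neither of these overlapped. The labels give no time of day for the injections or the collection of livers.

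**Figure D4:**
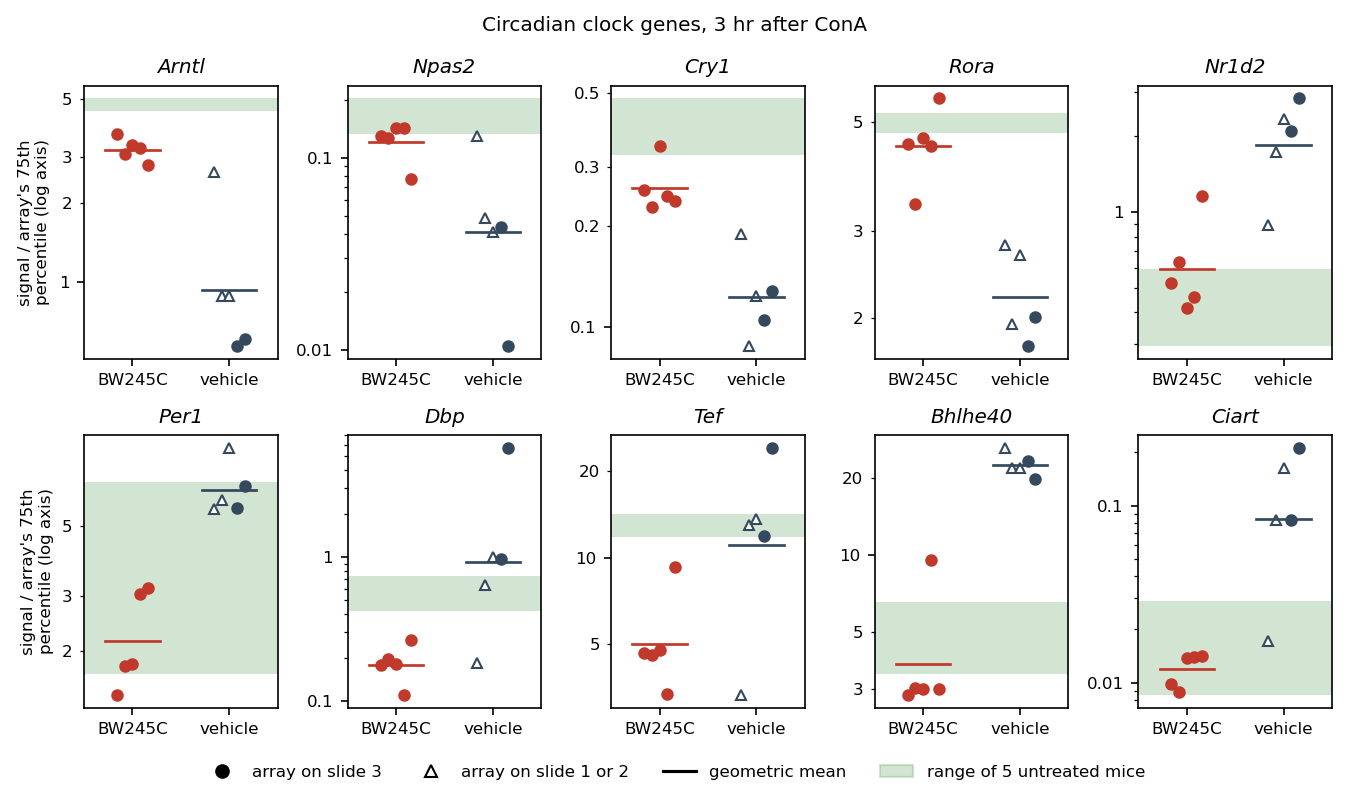
Levels of 10 clock genes in array units on a logarithmic axis, with BW245C mice left of vehicle mice, circles for slide 3, triangles for slides 1 and 2, and a green band for the untreated range. Arntl, Npas2, Cry1 and Rora were higher and the other 6 lower with BW245C, and vehicle mouse 1 is the triangle nearest to the BW245C values for Arntl, Npas2, Dbp, Tef and Ciart.

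For secreted hepatocyte proteins most calls were lost with the slide block. Of 31 acute phase proteins 18 were lower and none higher, with a median log2 change of -0.36, but 4 kept the call with the block, where the median was -0.13. Within the vehicle group the same list was lower by a median of 0.43 on slide 3, and its summed level was 12800 to 14900 array units with BW245C, 14600 in both vehicle livers of slide 3 and 16600 to 21200 in those of the other slides. Ribosomal protein genes behaved likewise, with 9 of 32 lower and none called with the block. Of 27 other secreted hepatocyte proteins 2 were lower and none higher. Of 23 transcription factors of hepatocyte identity 4 were higher and 8 lower, and with and without the block 2 and 3. Hnf4a, a master regulator, was at 190, 203, 214, 223 and 257 array units in BW245C livers, against 144, 160, 168, 140 and 121 in vehicle livers, 1.48-fold higher (limma adjusted p = 0.000694), whereas Cebpa was 1.80-fold, Prox1 1.77-fold and Gata6 1.69-fold lower, each without overlap.

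The genes called at 3 hr and at 24 hr overlapped in part. The contrast at 24 hr used no array of the contrast at 3 hr, and called 4007 genes (26.5%), 2656 higher (17.6%) and 1351 lower (8.94%). Of these, 728 were called in the same direction at 3 hr, which is 16.9% of the 3 hr calls and 18.2% of the 24 hr calls, and 319 in the opposite direction. The difference between the times was called for 4535 genes (30%), and for 923 (6.11%) with the slide block. Ptgs2 had nearly the same change at both times, log2 -3.02 at 3 hr and -3.06 at 24 hr. Ddit4 had -4.28 at 3 hr and -0.70 at 24 hr, Jun -2.19 and -0.69, and Nos2 -3.34 and -1.81.

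A few genes turned round between the times. Il4 had a log2 change of 1.10 at 3 hr and -0.96 at 24 hr, Il13 1.67 and -1.71, Pdk4 2.15 and -1.69, and each difference was called with and without the slide block. Ihh, a hedgehog ligand of the liver, was not above background with BW245C at 3 hr, at least 1.52-fold lower there, and log2 2.07 higher at 24 hr. Ifng, Cxcl1 and Cxcl10, which overlapped at 3 hr, were lower at 24 hr, by 1.47, 1.87 and 1.61 on the log2 scale. Their differences between the times were called (limma adjusted p = 0.0185, 0.000643 and 0.011). That difference was not called for Tnf and Il6, which were not called at 3 hr either. Cyp7a1, the rate-limiting enzyme of bile acid synthesis, was not called at 3 hr (log2 1.15 ± 0.71, 0.60 without BW245C mouse 5 and 1.77 without vehicle mouse 5) and was log2 5.10 higher at 24 hr. Cyp8b1, of the same pathway, had -0.26 at 3 hr and 3.05 at 24 hr.

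**Figure D5:**
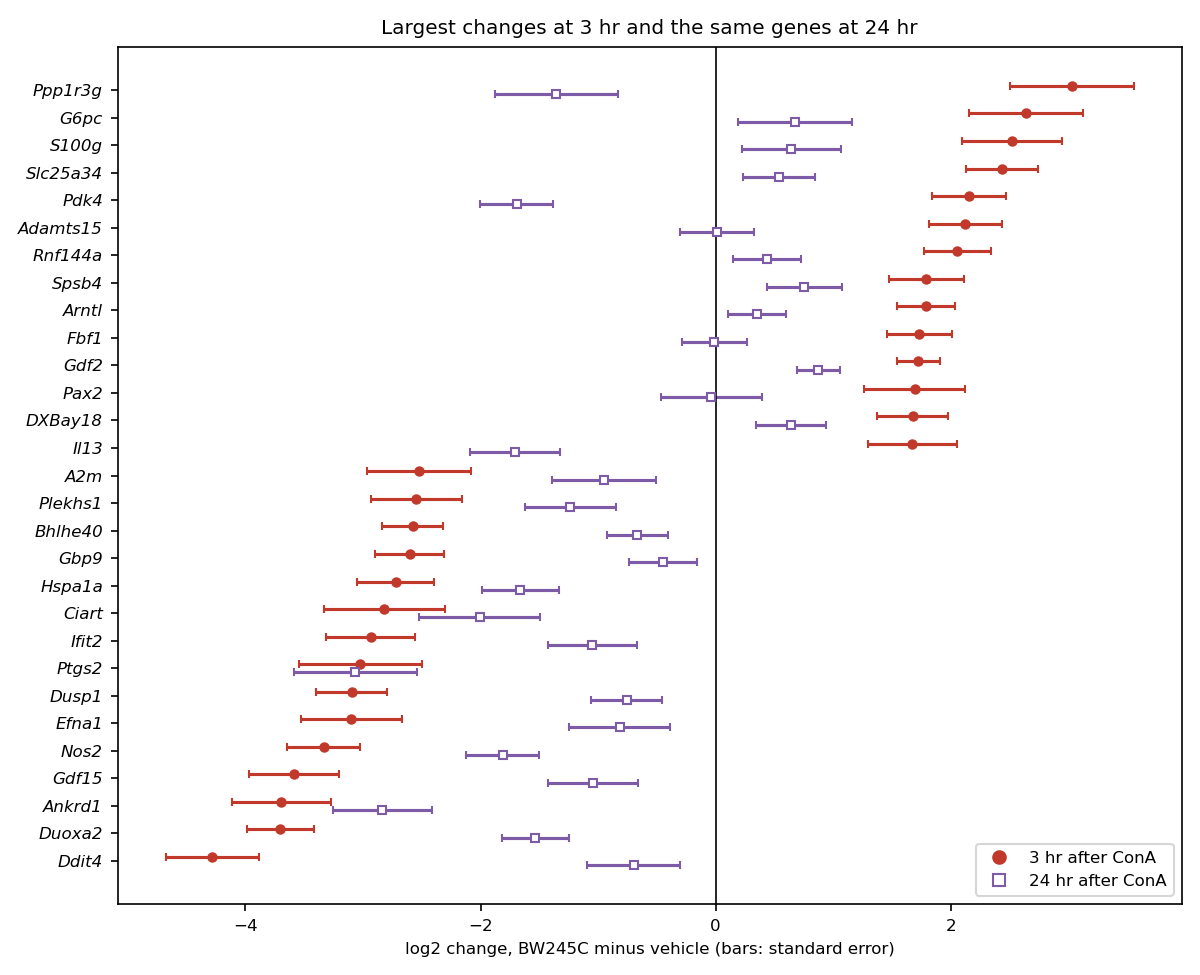
Log2 change, BW245C minus vehicle, of 14 of the 15 genes with the largest increases and the 15 with the largest decreases at 3 hr (red circles), with the same genes at 24 hr (open squares) and bars of 1 standard error. The changes are measured differences also for genes dimmer than background in a group. The genes were chosen for their change at 3 hr, so the sizes at the times are not compared. The circle and the square of Ptgs2 nearly coincide, and Ppp1r3g, Pdk4 and Il13 are among 5 genes on opposite sides of 0.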

How the data were processed

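Each liver RNA was labelled in 1 colour and hybridised to an Agilent mouse array, 1 array a mouse, 25 arrays in all. The intensity values are processed signals that the authors extracted with Agilent Feature Extraction 10.7.3.1, per the file headers, while the submitters' processing notes name version 9.1. The deposited series matrix holds the authors' processed intensity values of the same arrays, with the rule behind its scale not given in the sources used here. Signals were divided by the 75th percentile of their array and taken to log2, and spots of a probe were averaged. Control spots were left out, no spot was saturated, and no pair of arrays was identical. Probes were kept that rose well above background on 5 or more of the 25 arrays, and each gene was represented by its brightest probe, which left 15104 genes. Of 55681 probes 29099 have no gene symbol and entered only as an alternative.

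All 25 arrays were fitted with limma 3.58.1 in R 4.3.3, with 1 mean per group and Benjamini-Hochberg adjustment over all genes, after a check on simulated data. The p-values rest on the spread between mice within groups, pooled over all 25 arrays. Without a slide term, that spread and the differences between groups also hold differences between slides. The number of arrays limits the precision. Genes were named by a rule: in each direction the 15 largest called changes without overlap of the arrays, the 10 largest with the slide block among genes called with and without it and not overlapping within slide 3, a fixed list of genes, up to 4 members of each gene list with the smallest p, and in each direction the 5 largest differences between the times. Predicted and unnamed genes were counted and not named, and 2 genes are not reported here. Others are said to be chosen after their values were seen. The members and lists were chosen with earlier results of these data known. Alternatives covered background correction, normalization, filters, probe choice, slide, replicate number, sample choice and thresholds.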

Additional observations from a re-analysis of the deposited data

Results flagged for a closer look

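Single mice far from the other 4 of their group were sought in 106 groups of 5 (53 genes named for the size of their change or fixed by name), and 12 were found, where chance gives about 1 in 20. Among BW245C livers these were mouse 5 for G6pc at 14.4 array units, DXBay18 at 0.781, Nos2 at 1.39 and Npas2 at 0.0772, and mouse 4 for Spsb4 at 0.179 and Bhlhe40 at 9.56. Among vehicle livers they were mouse 1 for Slc25a34 at 0.0365, Arntl at 2.64, Nos2 at 36.2, Tnf at 2.50 and Ccl2 at 154, and mouse 3 for Ihh at 0.131.

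The genes examined include those chosen for the largest differences between the times and those chosen for the largest changes at 3 hr. A difference opposite in sign to the 3 hr change was thus favoured in advance, and the counts that follow only describe these genes. The effect of BW245C differed between 24 hr and 3 hr, by the limma interaction term, for 35 of these genes, and for 24 of them also with the slide as a block. Over all genes the shares were 30% and, with the block, 6.11%. The 11 that lost the call with the block were G6pc, S100g, Slc25a34, Pax2, Nos2, Efna1, Ifit2, Gbp9, Sult1e1, Il10 and Per1 (limma adjusted p = 0.0595 to 0.545). Given as the log2 effect at 24 hr minus that at 3 hr, the difference was negative for genes of the early increase: Ppp1r3g -4.39, Pdk4 -3.85, Il13 -3.38, Adamts15 -2.11, G6pc -1.97, Slc25a34 -1.90, S100g -1.88, Fbf1 -1.74, Pax2 -1.73, Rnf144a -1.62, Arntl -1.44 and Gdf2 -0.85. Among cytokines and chemokines it was -4.23 for Cxcl3, -2.06 for Il4, -1.86 for Cxcl1, -1.70 for Il10, -1.41 for Cxcl10 and -1.14 for Ifng. For Sult1e1, an oestrogen sulfotransferase, it was -4.07, and for Crem -0.65.

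The difference was positive for genes of the early decrease, with 3.59 for Ddit4, 2.55 for Gdf15, 2.34 for Dusp1, 2.28 for Efna1, 2.17 for Duoxa2, 2.15 for Gbp9, 2.11 for Dbp, 1.91 for Bhlhe40, 1.89 for Ifit2, 1.52 for Nos2 and 1.44 for Per1. The difference was also positive for Ihh at 4.49 and for the hepatocyte enzymes Cyp7a1 at 3.95, Cyp8b1 at 3.31 and Hao2 at 3.21. At 3 hr Adamts15 with vehicle and Duoxa2 and Ihh with BW245C were not above background, so their values rest on signals at background there.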

How the results depend on the processing

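The 4317 calls (1773 higher, 2544 lower) and 4535 differences between the times changed with the slide. With it as a block there were 1770 calls (854 higher, 916 lower) and 923 differences; as a random block 2647 (1041, 1606) and 2104; within slide 3 1415 (667, 748) and 837. Chosen after seeing the data, the block on slides 1 to 3 alone gave 1365 (651, 714), without vehicle mouse 4 685 (301, 384) and without vehicle mouse 5 920 (457, 463). Fitting only the groups compared gave 2190 (751, 1439), all probes named or not 8756 (4492, 4264) and 9403, at least 2-fold 572 (243, 329) and 1170, and adjusted p under 0.01 2120 (690, 1430) and 1887. Series matrix values gave 2870 higher among 4622 calls, and 51.3% of calls were higher over all probes. Leaving out 1 mouse gave 3129 (without vehicle mouse 1) to 5408 (without vehicle mouse 5) calls, 1177 (also without vehicle mouse 1) to 2264 higher, 1924 to 3144 lower and 3250 to 5353 differences. Same-numbered mice did not deviate together (correlations -0.172 to -0.00804), and the replicate block gave 4100 calls. Of 267 named genes, some of which had no call to lose, 79 lost the call with the slide block and 2 gained one. Nkg7 turned to -0.12 and Cr2 to 0.20 with the mean of probes, and Cd3e to -0.034 and Cyp46a1 to -0.022 with the block without vehicle mouse 5. The causes were not tested.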

Other observations

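Inhibitory Smads, which end BMP and TGF-beta signalling, were lower with BW245C. Smad6 was at 0.281, 0.237, 0.284, 0.282 and 0.240 array units in BW245C livers, against 0.422, 0.877, 0.953, 0.652 and 0.825 in vehicle livers, and Smad7 was 3.09-fold lower (limma adjusted p = 2.5e-06). Among TNF superfamily genes, Tnfsf10, the death ligand TRAIL, was 3.02-fold lower and Tnfrsf11b, its soluble decoy receptor osteoprotegerin, 2.33-fold lower. Il17ra, the receptor of interleukin 17, was 2.42-fold lower and Nfatc1, a calcium-driven factor of lymphocytes, 3.01-fold lower. None of these overlapped between groups, and each kept its call with the slide as a block.

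Several hepatocyte genes of lipid and amine metabolism were higher. Insig2, which restrains cholesterol synthesis, was at 78.9, 68.1, 96.3, 84.2 and 120 array units with BW245C, against 44.7, 30.1, 37.3, 33.0 and 25 with vehicle, 2.63-fold higher (limma adjusted p = 1.58e-06). Plin5, a coat protein of lipid droplets, was 2.60-fold and Ddc, the aromatic amino acid decarboxylase, 2.60-fold higher. Gclc, the first enzyme of glutathione synthesis, was 1.58-fold higher. These too did not overlap and kept the call with the block.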
